A study of Homo sapiens with 12 samples.

Results

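The knockdown derivatives of HaCaT compared here were cells with a hairpin against NRF2 (shNRF2) and, set directly against them, cells with a hairpin against MLL1 (shMLL1). HaCaT is an established line of human keratinocytes that divides without limit in culture. The comparison took 6 of the 12 libraries of the series, 3 from shNRF2 and 3 from shMLL1, chosen by their labels. Each derivative had 1 library without treatment, 1 after 24 h in hydrogen peroxide (H2O2) at 100 µM, and 1 after 24 h in cerium oxide nanoparticles (written CeO2 below) at 25 µg/mL. All 6 libraries carried a knockdown hairpin, and cells with the control hairpin (shControl, labelled wild type) were left out of the comparison and enter only an alternative fit to all 12 libraries; their levels are given beside some genes as a description. Each knockdown is represented by 1 derivative, and the labels do not say whether it is a clone or a pool, which hairpin sequence it carries, or whether the 3 libraries came from separate cultures. The p-values therefore measure the spread among these libraries only.

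MLL1, encoded by KMT2A, is a methyltransferase that places methyl groups on lysine 4 of histone H3 at promoters and enhancers and works in a complex with menin, WDR5 and other partners. NRF2, encoded by NFE2L2, is a transcription factor that KEAP1 holds at low levels in resting cells; under oxidative or electrophilic stress it accumulates and activates genes with antioxidant response elements, among them genes of glutathione and NADPH metabolism. In keratinocytes NRF2 also takes part in cornification and barrier repair. H2O2 is a direct oxidant, and cerium oxide nanoparticles can exchange electrons with reactive oxygen species.

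Many entries of the deposited tables do not hold the reads of the gene whose identifier they carry. Genes were therefore read by name only on 5 stretches of GRCh38 and on the mitochondrial genome, where names and reads match. The stretches run from 0.218 to 44.8 Mb on chromosome 5, 19.4 to 37.8 Mb on chromosome 9, 0.237 to 0.843 Mb on chromosome 11, 3.25 to 12.3 Mb on chromosome 18 and 0.868 to 6.39 Mb on chromosome 19. Together with the mitochondrial genome they hold 1587 entries, of which 467 were abundant enough to be tested. The 6 libraries held 5667417 to 7670446 counts, mitochondrial transcripts took 7.41 to 8.99% of them, and a count of 0 allows up to 0.391 to 0.529 CPM (a count divided by the library's total and scaled to 1e6). Across genes, log2 CPM correlated with a Pearson r of 0.987 to 0.992 within a derivative (6 pairs) and 0.975 to 0.980 between the derivatives (9 pairs); genes are not independent replicates.

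Values in CPM are given below in the order untreated, H2O2, CeO2. A log2 difference is shNRF2 minus shMLL1, with its standard error, so a positive value means a higher level in shNRF2; all adjusted p-values come from the quasi-likelihood test of edgeR over all 10176 entries tested, and a gene is called at an adjusted p under 0.05. In bulk libraries a lower level in every cell and a smaller share of expressing cells cannot be told apart.

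Both targeted genes lie outside the matched stretches, so their entries may not hold the reads of these genes, and they check the labels only with that limit. In shMLL1 the entry of KMT2A (chromosome 11, 118436464 to 118526832) was at 32.0, 99.7 and 35.6 CPM; in shNRF2 it was at 465, 573 and 455 CPM, where shControl held 464, 482 and 494 CPM. It was 9.80-fold higher in shNRF2 (log2 3.29 ± 0.15, adjusted p = 2.29e-14). The H2O2 library of shMLL1 held more in this entry than the other shMLL1 libraries but far less than any shNRF2 library, and the groups did not overlap. The entry listed as NFE2L2 (chromosome 2, 177227595 to 177392697) had 0 counts in each shNRF2 library, while shMLL1 had 1, 1 and 3 counts and shControl had 1, 12 and 16. The pooled ratio of shNRF2 to shMLL1 was 0, with an exact 95% interval of 0 to 1.02 that covers counting error only. This entry did not separate the derivatives and was too low to be tested, and whether it holds reads of NFE2L2 is not known.

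Of the 10176 entries tested, 1991 were called, which is 19.6%; 1097 (10.8%) were higher in shNRF2 and 894 (8.79%) were lower. Inside the matched stretches 161 of 467 were called (34.5%), 99 higher (21.2%) and 62 lower (13.3%). The counts of called list members given below are to be read beside these shares. Entries in these stretches were also more abundant than the rest, with a median of 102 CPM against 19.5 CPM. The CPM ranges of the 2 derivatives did not overlap for 229 of the 467 entries (49.0%), against 33.4% of all entries tested. The median log2 difference was 0.00493 in the stretches and 0.00383 over all entries.

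Most of the higher calls in shNRF2 lay on the short arm of chromosome 5, which holds 69 of the 99. Of 92 coding genes tested there, 63 were higher in shNRF2 and 9 were lower, with a median log2 difference of 0.45. On the other 4 nuclear stretches, 25 of 264 coding genes were higher and 49 lower, with a median of -0.08. This last balance depends on the scaling: with library sizes scaled on the matched entries outside chromosome 5, a setting added after seeing the data, 32 of the 264 were higher and 29 lower (median -0.00255), and the 149 calls in all stretches divided into 112 higher and 37 lower. The medians of the single other stretches were close to each other: -0.04 on chromosome 9, -0.08 on chromosome 11, -0.03 on chromosome 18 and -0.09 on chromosome 19. On the mitochondrial genome 0 of 16 entries were called, with a median of -0.02.

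**Figure D1:**
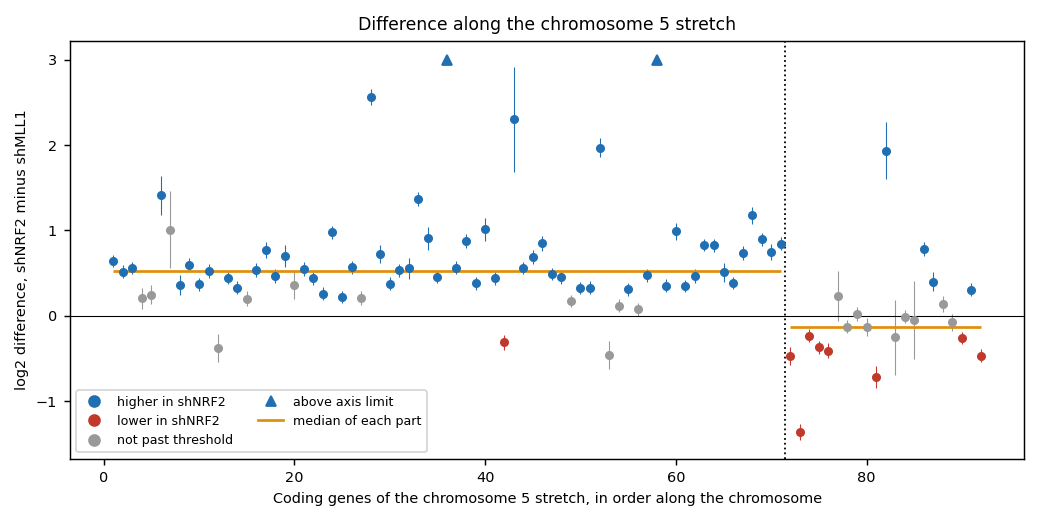
Log2 difference shNRF2 minus shMLL1 of each coding gene tested on chromosome 5, in the order of the genes, as points with standard errors; called genes are coloured, lines give the medians and triangles mark the 2 genes above the axis. From SDHA to FYB1, 68 of 71 genes lie above 0; the 21 genes from TTC33 onward lie around a median of -0.125.

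The coding genes of the arm were divided at 1 boundary, with at least 8 genes on each side. That number of boundaries was set by the method, and further changes along the arm were not searched. From SDHA at the distal end to FYB1 (39105255 to 39274528), 59 of 71 coding genes were higher in shNRF2, 68 of 71 differences were above 0 and the median was 0.52 (quartiles 0.36 and 0.83). These counts include SPEF2, OTULINL and CDH10, which reached the filter of 1 CPM in 3 libraries only through shNRF2. With a filter at 5 CPM, which those genes do not reach, 57 of 67 were higher and 1 lower, with a median of 0.529. From TTC33 (starting at 40512333) to MRPS30, 4 of 21 were higher and 8 lower, with a median of -0.125. The boundary was placed after seeing the data, where it left the smallest absolute deviations, so the contrast between its sides is a description with no test. The distal median was similar in successive 10 Mb bins, at 0.49 (28 genes from 0 to 10 Mb), 0.56 (14 genes from 10 to 20 Mb) and 0.50 (28 genes from 30 to 40 Mb); only CDH10 was tested between 20 and 30 Mb. It was also similar in each treatment, at 0.57 untreated, 0.51 with H2O2 and 0.48 with CeO2.

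The levels in single libraries show which derivative stood apart on this arm. Taken against the mean of the 3 shControl libraries and relative to the other stretches, the median level of the distal genes was -0.61, -0.50 and -0.51 (log2) in the shMLL1 libraries. In the shNRF2 libraries it was 0.07, 0.04 and 0.01, and in the shControl libraries themselves -0.19, 0.09 and 0.07, with the untreated one low on both sides of the boundary. The libraries with a hairpin against UTX (shUTX), which likewise enter only that alternative fit, were at 0.24, 0.24 and 0.22. On the proximal side the same measure was 0.10, 0.21 and 0.14 in shMLL1 and 0.20, 0.07 and 0.14 in shNRF2, and the derivatives overlapped. The 3 shMLL1 libraries were thus the low ones on the distal side and were not low on the proximal side. For a single gene of the distal side, the hairpin and the position on the arm cannot be told apart in these libraries, and a cause of the pattern was not tested.

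**Figure D2:**
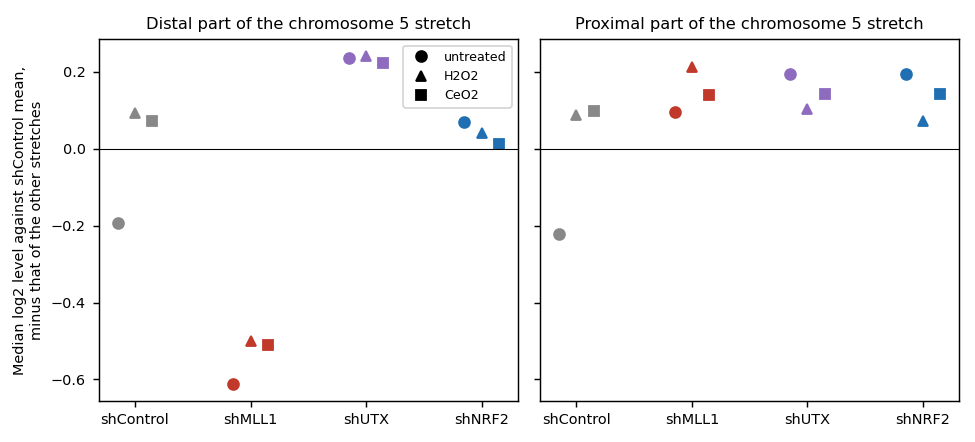
Median log2 level of chromosome 5 coding genes in each of the 12 libraries, relative to the shControl mean and to the other stretches, for the distal and the proximal side. On the distal side the 3 shMLL1 libraries lie between -0.613 and -0.501 and the 3 shNRF2 libraries between 0.012 and 0.071; on the proximal side they overlap.

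Several genes of the distal side differed by far more than its median. SEMA5A (9035026 onward), a semaphorin that guides axons and also acts on endothelial cells, held 30.9, 47.5 and 37.8 CPM in shMLL1 and 220, 235 and 228 CPM in shNRF2. It was 5.91-fold higher in shNRF2 (log2 2.56 ± 0.09, adjusted p = 1.77e-15), and shControl, at 147, 235 and 282 CPM, was on the shNRF2 side. ADAMTS12, a secreted metalloprotease of the extracellular matrix, held 30.2, 35.6 and 39.3 CPM in shMLL1 and 135, 168 and 115 CPM in shNRF2 (3.91-fold, log2 1.97 ± 0.11, adjusted p = 2.70e-12). Its shControl libraries also held more than any shMLL1 library, at 139, 244 and 232 CPM. DAP, a protein linked to interferon-induced cell death and to autophagy, held 64.1, 68.3 and 60.3 CPM in shMLL1 against 164, 181 and 156 CPM in shNRF2 (2.58-fold, log2 1.37 ± 0.08, adjusted p = 1.41e-11). For these 3 genes no shMLL1 library reached the lowest shNRF2 library.

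Receptors of the interleukin-6 family sit near the proximal end of this side. LIFR, the receptor subunit for leukaemia inhibitory factor, held 46.1, 58.2 and 60.1 CPM in shMLL1 and 134, 113 and 125 CPM in shNRF2 (log2 1.18 ± 0.10, adjusted p = 3.23e-09). OSMR, the oncostatin M receptor subunit through which keratinocytes respond to that cytokine, held 455, 578 and 523 CPM in shMLL1 and 987, 962 and 961 CPM in shNRF2 (log2 0.90 ± 0.08, adjusted p = 3.85e-09). Its shControl libraries held 627, 927 and 949 CPM, between the derivatives. IL7R, the receptor for interleukin-7 and, in another pairing, for thymic stromal lymphopoietin, differed by 0.35 ± 0.07 (adjusted p = 0.00124). Of the list of 12 cytokine and prostaglandin receptors, 7 were tested, 3 were higher and 2 lower; these 3 are the higher ones, and all lie on the distal side.

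Genes of the distal side that were near 0 in shMLL1 were singled out after their values were seen, since they fall under the abundance set for named genes. They reached the filter of 1 CPM in 3 libraries only through shNRF2. A large difference was therefore fixed by that choice, and the values below are a description only. SPEF2, a component of the sperm tail and of motile cilia, had 0 counts in all 3 shMLL1 libraries, 31, 19 and 27 counts in shNRF2 and 19, 37 and 19 counts in shControl. Against a floor of 3 counts over the shMLL1 group it was at least 24.1-fold higher in shNRF2. The long non-coding RNA MIR4458HG had 0 counts in shMLL1 against 39, 25 and 43 counts in shNRF2, which is at least 33.4-fold higher. OTULINL, a relative of the deubiquitinase OTULIN, was counted 0, 1 and 0 times in shMLL1 but 18, 19 and 21 times in shNRF2, a ratio of 54.4 with an exact 95% counting interval of 9.38 to 2.18e+03. These 3 genes were all present in shControl.

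Among the abundant named entries of the distal side, some are less certain. SLC9A3-AS1, antisense to the sodium-proton exchanger gene SLC9A3, held 6.32, 8.82 and 6.78 CPM in shMLL1 and 29.5, 35.4 and 38.2 CPM in shNRF2 (4.69-fold, log2 2.23 ± 0.15, adjusted p = 9.70e-11). TPPP, which bundles microtubules, held 3.37, 4.06 and 3.85 CPM against 10.4, 9.60 and 10.2 CPM (log2 1.41 ± 0.23), and the long intergenic RNA ENSG00000248994 had a mean of 2.58 CPM against 10.6 CPM (log2 2.03 ± 0.24). SLC9A3-AS1 overlaps SLC9A3 and TPPP overlaps CEP72; the sources used here do not state whether counting used the strand, so reads of such partners cannot be told apart. The SLC9A3 entry itself differed by 0.21 and was not called.

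Against the direction of the distal side, BASP1 was the only called coding gene that was lower in shNRF2. BASP1, a membrane-bound growth cone protein and a partner of WT1, held 197, 175 and 163 CPM in shMLL1, 140, 159 and 136 CPM in shNRF2 and 495, 501 and 432 CPM in shControl. It differed by -0.31 ± 0.09 (adjusted p = 0.0121), and both knockdown derivatives were under every shControl library; the call was lost under 4 of the 18 other settings, 2 of which leave out an untreated library (adjusted p up to 0.122). TERT, the catalytic subunit of telomerase, held 14.9, 19.4 and 16.8 CPM in shMLL1 and 11.8, 18.5 and 10.0 CPM in shNRF2, and its difference of -0.38 ± 0.16 did not pass (adjusted p = 0.109). Its neighbour CLPTM1L was higher in shNRF2 by 0.44 ± 0.07. AMACR, further along the distal side, differed by -0.46 ± 0.16 and was not called. The pseudogene EEF1A1P13 (log2 -0.54 ± 0.16), which shares sequence with other copies of EEF1A1, is uncertain and lost its call under 7 settings.

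The proximal side holds the named gene with the widest difference towards shMLL1. PTGER4, a receptor for prostaglandin E2 that signals through cyclic AMP, held 129, 216 and 151 CPM in shMLL1 and 59.5, 72.6 and 58.8 CPM in shNRF2 (2.57-fold lower, log2 -1.36 ± 0.09, adjusted p = 4.05e-11). The shControl libraries held 40.4, 47.5 and 50.5 CPM, so the high level was that of shMLL1. Its neighbours TTC33 (log2 -0.47 ± 0.10), CARD6 (log2 -0.41 ± 0.09), RPL37 (log2 -0.37 ± 0.08) and PRKAA1, a catalytic subunit of AMP-activated kinase (log2 -0.23 ± 0.08), were lower as well; PRKAA1 lost its call under 7 of 18 settings, among them each omission of an exposed library. Without treatment, PRKAA1 held 435.6 CPM in shMLL1 and 435.5 CPM in shNRF2. CCDC152 was lower by log2 -0.71 ± 0.13 and SELENOP, which encodes a secreted selenium carrier, was higher by 1.93 ± 0.34 from 1.41, 1.24 and 1.23 CPM to 5.91, 3.03 and 6.13 CPM. These 2 genes overlap in their exons, so how the reads divide between them is uncertain. HMGCS1, an early enzyme of cholesterol synthesis, held 241, 271 and 269 CPM in shMLL1, 506, 377 and 478 CPM in shNRF2 and 526, 502 and 543 CPM in shControl (log2 0.78 ± 0.08, adjusted p = 1.76e-07).

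Outside chromosome 5, 81 of 337 tested entries were called, 30 higher in shNRF2 and 51 lower, beside 19.6% called among all entries tested. The balance of directions depends on the scaling. With the scaling outside chromosome 5, the coding genes there went from 25 higher and 49 lower to 32 higher and 29 lower. With that scaling the called lower genes MTAP, MLLT1, NFIC, UNC13B, POLR2L, PIDD1, PSMD13, PTDSS2 and RECK lost their calls. The values that follow are those of the main fit. Of the 30, 13 exceeded a log2 difference of 1 (median 0.76), while of the 51 lower ones 0 went beyond -1 (median -0.32). The 13 include APCDD1 and MATK, described below, which passed the abundance filter only through shNRF2. A large difference was fixed for them, so this contrast of sizes between the directions is a description only. The plot of named genes gives all 24 with their levels in each library.

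**Figure D3:**
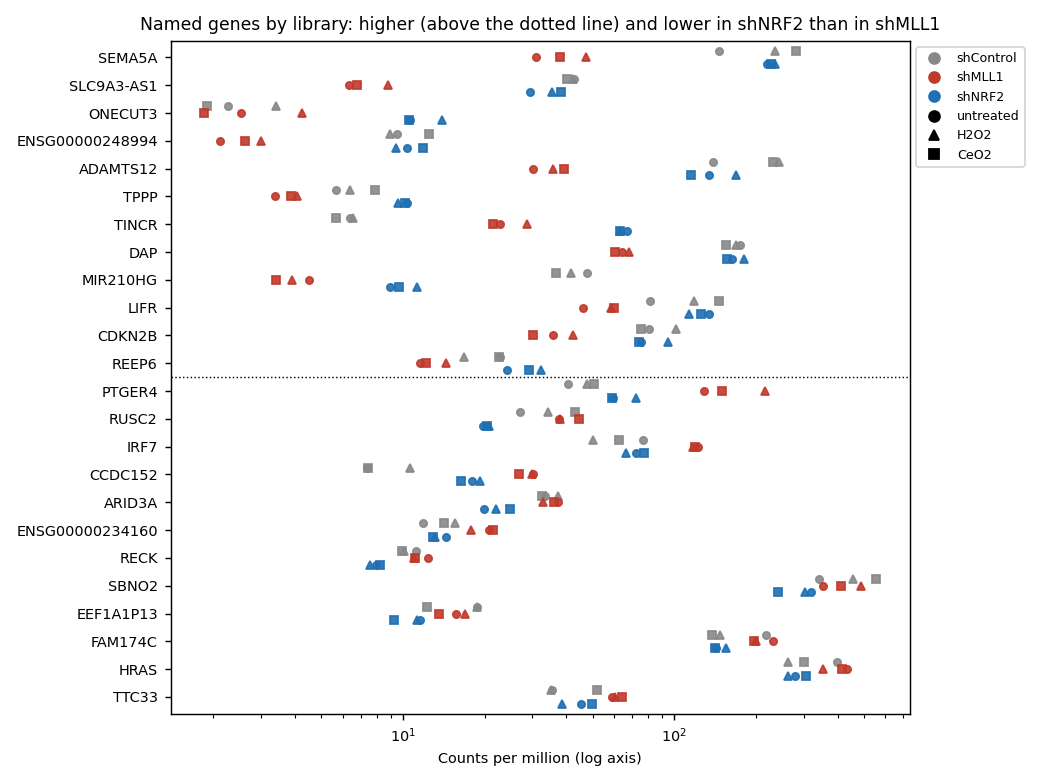
Level (CPM, log axis) of the 24 named genes in each of the 6 libraries of the comparison and in the shControl libraries, coloured by derivative with a symbol for each treatment. The shControl points lie below both knockdowns for PTGER4 and TINCR and above both for MIR210HG.

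The 2 listed hypoxia-linked genes were both higher in shNRF2, and both were far under the control level. CA9, the cell-surface carbonic anhydrase IX, is a classical target of the hypoxia-inducible factor HIF-1, and MIR210HG is the host transcript of miR-210, which the same factor induces. MIR210HG held 4.50, 3.88 and 3.39 CPM in shMLL1, 8.93, 11.3 and 9.65 CPM in shNRF2 and 47.6, 41.8 and 36.5 CPM in shControl (2.49-fold between the knockdowns, log2 1.32 ± 0.23, adjusted p = 1.72e-04). CA9 held 2.67, 1.76 and 2.31 CPM in shMLL1, 3.89, 6.06 and 6.52 CPM in shNRF2 and 54.0, 45.9 and 42.6 CPM in shControl (log2 1.23 ± 0.30, adjusted p = 0.00510). Neither gene overlapped between the derivatives, and every library of both was under every shControl library. CA9 shares 38.5% of its exon length with ARHGEF39, and its call was lost with DESeq2 (adjusted p = 0.128) and without the CeO2 library of shNRF2 (adjusted p = 0.0580).

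The promoters of both genes are shown because they are the stretches through which HIF-1 is known to act on hypoxia genes. They are the 250 bases before the annotated start in RefSeq (GRCh38.p14), written 5′ to 3′ on the strand of the gene; capitals mark the core of a hypoxia response element (ACGTG or GCGTG), searched on both strands.
CA9 promoter, chr9:35673678-35673927, plus strand: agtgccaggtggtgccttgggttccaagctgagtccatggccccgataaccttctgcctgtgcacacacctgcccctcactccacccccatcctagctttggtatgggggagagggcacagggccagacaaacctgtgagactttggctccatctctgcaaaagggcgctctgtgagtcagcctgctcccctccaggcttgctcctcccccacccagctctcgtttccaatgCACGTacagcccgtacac
MIR210HG promoter, chr11:568458-568707, minus strand: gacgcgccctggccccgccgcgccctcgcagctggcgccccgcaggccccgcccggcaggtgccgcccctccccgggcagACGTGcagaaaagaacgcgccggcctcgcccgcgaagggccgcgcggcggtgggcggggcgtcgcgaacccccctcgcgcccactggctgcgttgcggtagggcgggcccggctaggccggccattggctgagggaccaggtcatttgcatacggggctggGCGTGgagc
The CA9 promoter holds 1 core, on the opposite strand, and so reads CACGT as printed. The MIR210HG promoter holds 2 cores. The letters are short and common: 43.2% of the 35116 promoters of the table hold at least 1 core. Among genes of the matched stretches with a promoter in the table, 47 of 80 called higher (58.8%), 32 of 49 called lower (65.3%) and 141 of 205 not called (68.8%) hold one, so a match is a description of the sequence only.

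On the list of epidermal differentiation and barrier genes, 3 of 9 tested members were higher in shNRF2 and 1 was lower, with a median of 0.22. TINCR is known as an RNA that promotes terminal differentiation of keratinocytes, and its annotated type, used in the counts here, is protein coding. It held 22.8, 28.6 and 21.4 CPM in shMLL1, 67.1, 63.0 and 63.1 CPM in shNRF2 and 6.36, 6.54 and 5.67 CPM in shControl (2.66-fold, log2 1.41 ± 0.11, adjusted p = 1.72e-09). Both knockdowns were over every control library for this gene, and shNRF2 was the higher. TJP3, a scaffold of tight junctions, differed by 0.86 ± 0.12, and AQP3, an aquaglyceroporin of the basal epidermis, held 270, 238 and 260 CPM in shMLL1 against 378, 313 and 417 CPM in shNRF2 (log2 0.51 ± 0.08, adjusted p = 2.29e-05). The lower member as listed was CARD6, on the proximal side of chromosome 5, and an epidermal role of it was not checked. Of the 8 tested members on other chromosomes, 3 were higher and 0 lower.

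These genes also served to check the cell type. Of 12 keratinocyte markers only PKP3, TINCR and AQP3 lie in the matched stretches, and the keratin genes were not read. The summed level of the 3 was 1983 to 2154 CPM in shMLL1 and 2456 to 2648 CPM in shNRF2, most of it from PKP3, a desmosomal plakophilin that was not called (log2 0.22 ± 0.08, adjusted p = 0.0529; 0.00165 with the scaling outside chromosome 5). Of 5 lymphoid markers, PAX5, CD72 and SIT1 had at most 5 counts in any library of the comparison. The other members, IL7R and FYB1, were abundant in both derivatives and called, and both lie on the distal side of chromosome 5; the summed level of the list was 776 to 918 CPM in shMLL1, 1239 to 1329 CPM in shNRF2 and 858 to 1156 CPM in shControl. The melanocyte marker SLC45A2 and the endothelial marker TEK had 0 counts in all 6 libraries, and fibroblast markers were not analysed here.

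The called redox and NRF2-linked genes divided by chromosome. Of 9 tested members, 4 were higher in shNRF2 and 2 lower, with a median of 0.25. All 4 higher members lie on chromosome 5: SELENOP, MTRR, which regenerates methionine synthase (log2 0.57 ± 0.07), NADK2, the mitochondrial kinase that makes NADP (log2 0.47 ± 0.08), and NNT, the mitochondrial transhydrogenase that makes NADPH (log2 0.31 ± 0.07). NNT held 198, 225 and 222 CPM in shMLL1 and 274, 269 and 259 CPM in shNRF2 (adjusted p = 0.00421), on the proximal side, where the median was -0.125; its call was lost when a trend with transcript length was removed (adjusted p = 0.111).

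The called lower redox members lie elsewhere. GPX4, the selenoenzyme that reduces lipid hydroperoxides in membranes and restrains ferroptosis, held 585, 849 and 706 CPM in shMLL1, 483, 620 and 498 CPM in shNRF2 and 604, 1075 and 1193 CPM in shControl. It was lower in shNRF2 in every treatment (log2 -0.42 ± 0.07, adjusted p = 1.36e-04), although the ranges of the derivatives overlap across treatments. TALDO1, a transaldolase of the pentose phosphate pathway and a known NRF2 target, held 1494, 1351 and 1305 CPM in shMLL1 against 1130, 1084 and 1161 CPM in shNRF2 (log2 -0.31 ± 0.08, adjusted p = 0.00643), with no overlap. Both calls were lost when all 12 libraries were fitted together (adjusted p = 0.0751 for GPX4 and 0.0766 for TALDO1). ACO1, the iron-regulated cytosolic aconitase, held 84.9, 83.3 and 88.2 CPM in shMLL1 and 101, 84.9 and 99.1 CPM in shNRF2 and was not called (log2 0.14 ± 0.09, adjusted p = 0.287), and both were under shControl at 164, 174 and 171 CPM. AMACR (log2 -0.46 ± 0.16), which lies on the distal side of chromosome 5, and HINT2 (log2 0.25 ± 0.11) were not called either.

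The core of the antioxidant response element was searched as TGACNNNGC on both strands of the same promoters. It stands in 10.9% of all promoters, in 14 of 80 genes called higher (17.5%), 8 of 49 called lower (16.3%) and 33 of 205 not called (16.1%). The 3 shares are close together. In the redox list 1 of 7 promoters held it.

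Chromatin genes and partners of MLL1 were called in 7 of 13 tested members, 3 higher and 4 lower, with a median of -0.09. Of all tested entries in the stretches, 34.5% were called. NIPBL, which loads cohesin, and BRD9, a subunit of a BAF complex, were higher in shNRF2 (log2 0.83 ± 0.08 and 0.59 ± 0.08), and both lie on the distal side of chromosome 5. Among those elsewhere, ARID3A, a DNA-binding regulator of lineage genes, held 37.2, 32.8 and 36.1 CPM in shMLL1 and 19.9, 22.1 and 24.9 CPM in shNRF2 (log2 -0.68 ± 0.13, adjusted p = 3.12e-04). DOT1L, the methyltransferase of histone H3 lysine 79 that MLL fusion proteins recruit, held 370, 383 and 409 CPM in shMLL1 and 306, 326 and 309 CPM in shNRF2 (log2 -0.31 ± 0.07, adjusted p = 0.00329), a call lost without either CeO2 library (adjusted p up to 0.100). MBD3, of the NuRD complex, differed by -0.31 ± 0.08. MLLT1, a frequent MLL fusion partner that reads acetylated histones, held 520, 513 and 514 CPM in shMLL1, 463, 456 and 424 CPM in shNRF2 and 439, 446 and 451 CPM in shControl (log2 -0.22 ± 0.07, adjusted p = 0.0356). Its call was lost under 8 of 18 settings, among them each omission of an exposed library. KDM4B, the third higher member and a histone H3 lysine 9 demethylase, lost its call under 9. MLLT3, the paralogue of MLLT1, held 13.2 to 13.9 CPM in shMLL1 and 9.94 to 15.1 CPM in shNRF2 and was not called.

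Genes of the cell cycle and DNA repair were called in 9 of 15 members, 6 higher and 3 lower, beside 34.5% of all tested entries in the stretches. Of the called members, KIF24 (log2 0.26 ± 0.09) lost its call under 8 of 18 settings and PIDD1 (log2 -0.28 ± 0.10) under 9. CDKN2B, which encodes the inhibitor p15 of the cyclin D kinases CDK4 and CDK6, held 35.8, 42.4 and 30.1 CPM in shMLL1, 75.6, 94.5 and 73.9 CPM in shNRF2 and 80.4, 101 and 75.2 CPM in shControl (2.24-fold, log2 1.17 ± 0.10, adjusted p = 7.42e-09). Here the shMLL1 libraries were the low ones, and the gene lies on chromosome 9. Its neighbour MTAP, a methionine salvage enzyme, went the other way (log2 -0.25 ± 0.07) but lost its call under 5 settings. Of these, 4 were omissions of an exposed library and the other was the scaling outside chromosome 5. CDKN2A, which lies between MTAP and CDKN2B, went the way of CDKN2B but was not called (log2 0.24 ± 0.09, edgeR adjusted p = 0.0527). GADD45B, a stress-inducible growth arrest gene, differed by 0.42 ± 0.09. SKP2, which marks p27 for degradation, TRIP13 and RAD1 were higher by 0.35 ± 0.07, 0.37 ± 0.07 and 0.31 ± 0.08; all 3 are on the distal side of chromosome 5, and RAD1 lost its call without either H2O2 library (adjusted p up to 0.0722).

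Growth signalling genes were higher in 3 and lower in 2 of 12 tested members. HRAS, the small GTPase, held 434, 353 and 416 CPM in shMLL1, 279, 264 and 306 CPM in shNRF2 and 399, 263 and 300 CPM in shControl (log2 -0.51 ± 0.08, adjusted p = 2.81e-05). TLE2, a Groucho-type corepressor, was 2.33-fold higher in shNRF2 at a low level (2.53, 3.53 and 2.62 CPM against 6.63, 7.58 and 6.13 CPM; not called by DESeq2, adjusted p = 0.0639), and RICTOR, the subunit that defines mTOR complex 2, was higher by 0.74 ± 0.09 on chromosome 5. In the interferon and innate list 3 of 10 members were higher and 1 lower. IRF7, the transcription factor that amplifies type I interferon, held 122, 117 and 120 CPM in shMLL1, 72.6, 66.2 and 77.3 CPM in shNRF2 and 76.8, 50.4 and 62.4 CPM in shControl (1.67-fold lower, log2 -0.74 ± 0.09, adjusted p = 8.35e-07). IFITM2, a membrane protein that blocks virus entry, was higher by 0.39 ± 0.08; it shares exons with a neighbouring gene.

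Axon and neurite genes other than those on chromosome 5 included PTPRS, a receptor tyrosine phosphatase that binds proteoglycans. It held 284, 332 and 349 CPM in shMLL1, 588, 671 and 690 CPM in shNRF2 and 452, 520 and 645 CPM in shControl (2.01-fold, log2 1.01 ± 0.07, adjusted p = 2.13e-10). UNC13B, a priming factor of vesicle release, was lower (log2 -0.33 ± 0.09), with the call lost under 7 settings. RUSC2, a Rab-binding adaptor of vesicle traffic, held 37.7, 37.9 and 44.7 CPM in shMLL1 and 19.7, 20.7 and 20.5 CPM in shNRF2 (1.99-fold lower, log2 -0.99 ± 0.12, adjusted p = 1.22e-06). ONECUT3, a homeodomain factor of liver, pancreas and nerve development, held 2.53, 4.24 and 1.85 CPM in shMLL1, 10.7, 14.0 and 10.6 CPM in shNRF2 and 2.26, 3.41 and 1.89 CPM in shControl (4.13-fold, log2 2.05 ± 0.24, adjusted p = 7.26e-07). The shUTX libraries held more ONECUT3 still, at 16.9, 23.3 and 16.4 CPM. APCDD1, an inhibitor of WNT signalling at the cell surface, was near 0 outside shNRF2, with 0 in the 3 shMLL1 libraries, 35, 23 and 32 in shNRF2 and 1, 3 and 1 in shControl, at least 28.1-fold higher against the floor over the group; it was singled out after its values were seen. APCDD1 also passed the abundance filter only through shNRF2, so a large difference was fixed by that choice. REEP6, a shaper of the endoplasmic reticulum (log2 1.15 ± 0.14), SBNO2 (log2 -0.54 ± 0.09), FAM174C (log2 -0.53 ± 0.08), the antisense RNA ENSG00000234160 (log2 -0.58 ± 0.15) and RECK, a membrane-bound inhibitor of metalloproteases (log2 -0.55 ± 0.19), complete the named genes. The SBNO2 difference came mostly from the exposed libraries, with log2 ratios of -0.146 untreated, -0.687 with H2O2 and -0.768 with CeO2. RECK held 12.4, 10.9 and 11.1 CPM in shMLL1 and 7.92, 7.58 and 8.21 CPM in shNRF2 and lost its call under 10 of 18 settings, every omission of a library among them (adjusted p up to 0.352), and ENSG00000234160 lost its call with DESeq2 and without either CeO2 library.

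Mitochondrial genes differed by compartment and by chromosome. Of 15 genes of the mitochondrial genome 0 were called by edgeR, DESeq2 or limma-voom, 1 had an unadjusted p under 0.05 (MT-CYB), and the median was -0.02; MT-ND4, for example, held 9754, 9365 and 8486 CPM in shMLL1 and 8908, 9336 and 7319 CPM in shNRF2 (log2 -0.13 ± 0.09, adjusted p = 0.347). With the scaling outside chromosome 5, MT-CYB, MT-ND5 and MT-RNR2 were called higher in shNRF2 (log2 0.25, 0.22 and 0.20). Of 9 nuclear genes of the respiratory chain, SDHA (log2 0.64 ± 0.07) and NDUFS6 (log2 0.54 ± 0.08) were higher in shNRF2, and both are on the distal side of chromosome 5; the 7 on other chromosomes were not called and had a median of -0.11. Genes of the mitochondrial ribosome, import and proteolysis were lower in shNRF2 in 4 of 9 members and higher in none, with a median of -0.20. These 4 were MRPS30 (log2 -0.47 ± 0.07), the matrix protease CLPP (log2 -0.39 ± 0.08), and the import components TOMM5 (log2 -0.39 ± 0.08) and TIMM13 (log2 -0.32 ± 0.08).

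In several other lists the higher members lay on chromosome 5 and the lower ones elsewhere. Of 10 proteasome, ubiquitin and chaperone genes, CCT5 and MARCHF6 were higher in shNRF2 and lie on chromosome 5; UBE2R2, SGTA, DNAJA1 and PSMD13 were lower and lie elsewhere, PSMD13 losing its call under 9 settings. Of 7 tested solute carriers, ANKH (log2 0.88 ± 0.08), SLC1A3 (log2 0.83 ± 0.07) and SLC12A7 (log2 0.52 ± 0.08) were higher, all on chromosome 5, and SLC39A3, SLC25A22 and MFSD12 were lower, all elsewhere. Among 16 genes of RNA polymerase II, Mediator and RNA processing the 3 higher ones (DROSHA, MED10 and SUB1) were again on chromosome 5, and POLR2L and EXOSC3 were lower. Of 11 genes of the cytosolic ribosome and its assembly 2 were higher and 3 lower, with a median of -0.17. Lipid genes were higher in 5 of 10 members, 3 of them on chromosome 5, and lower in 1, PTDSS2, which lost its call under 11 of 18 settings; the widest difference was that of SRD5A1, a steroid 5-alpha reductase (203, 223 and 210 CPM against 395, 448 and 421 CPM; log2 0.98 ± 0.07). Of 8 tested glycan enzymes 0 were called by edgeR, DESeq2 or limma-voom and 0 had an unadjusted p under 0.05 (median -0.02), the most abundant being B4GALT1 at log2 0.13 ± 0.07. GADD45B, MBD3, TIMM13, IFITM2, SLC39A3, MFSD12, POLR2L and SUB1 lost their calls when all 12 libraries were fitted, and SGTA without the CeO2 library of shNRF2 (adjusted p = 0.0535). Since the lists were drawn up with results of these data known, their counts describe the lists and are no test of them.

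**Figure D4:**
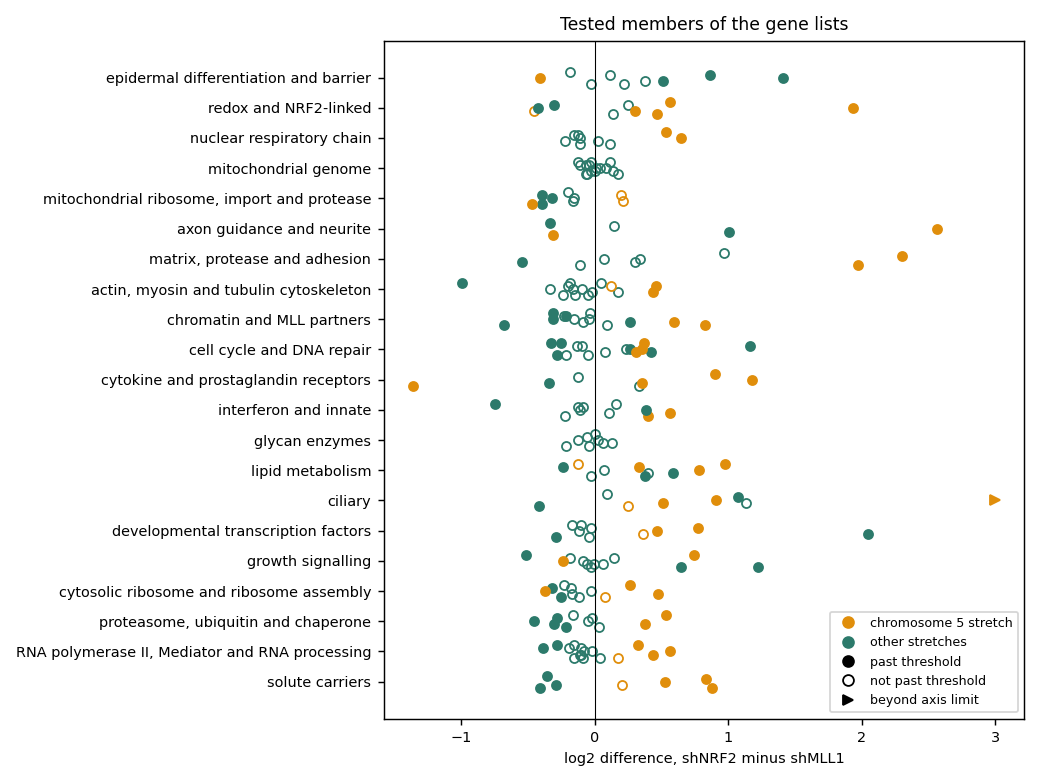
Log2 difference shNRF2 minus shMLL1 of each tested list member, with members on chromosome 5 marked apart from those on other stretches. In the redox, solute carrier and proteasome lists the called members on chromosome 5 lie above 0 and the called members elsewhere lie below 0.

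A change of the difference between the derivatives by exposure was tested with H2O2 and CeO2 pooled as exposed. It was called for 2 of 10176 entries (0.0197%) and for 1 of 467 entries in the matched stretches (0.214%), by edgeR with 2 residual degrees of freedom. An unadjusted p under 0.05 was found for 914 of the 10176 and 55 of the 467. Both are more than the 5% that would fall there by chance. DESeq2 called 3 and 1. The called entry inside the stretches was the pseudogene SLC4A1APP1 (log2 change -3.76 ± 0.43, adjusted p = 0.00617). Outside them it was the entry listed as RNU5B-2P, whose name was not read (-5.67 ± 0.39, adjusted p = 3.92e-05), with 720, 27 and 29 counts in shNRF2 and 14, 25 and 27 in shMLL1. RICTOR, next in the stretches, did not pass (edgeR adjusted p = 0.193). Its log2 ratios were 1.20 untreated, 0.489 with H2O2 and 0.576 with CeO2. For no named gene did the difference between shNRF2 and shMLL1 pass the test of a change with exposure, which this design of 1 library per combination leaves at low precision.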

How the data were processed

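Total RNA of HaCaT cells was sequenced. The authors deposited unnormalized counts of reads, 1 whole number per Ensembl identifier and library, in an H2O2 table and a CeO2 table with 61498 entries each. The submitters' processing notes name GRCh38 and, as tools, HTSeq 0.11.1, SAMtools 1.12, HISAT2 2.2.1 and Trimmomatic 0.39; annotation release, settings and use of the strand were not found in the sources. Untreated counts came from the H2O2 table. All per-sample columns were mapped to samples by their names.

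Symbols were found for 61399 identifiers, and positions, gene types and exon lengths came from GENCODE 29 (58298 identifiers). An entry was tested where 3 or more of the 6 libraries reached 1 CPM (10176 entries). The model had terms for derivative and treatment, which left 2 residual degrees of freedom, and used TMM factors and the two-sided quasi-likelihood test of edgeR 4.0.16, with Benjamini-Hochberg adjustment over every entry tested. Standard errors are the size of the log2 difference divided by the square root of F. The test shares information on spread across entries, so p-values and standard errors do not rest on the 2 residual degrees of freedom of a single entry alone. A second fit, with derivative, exposure and their interaction, is exploratory. CPM values use plain library totals; a count of 0 allows up to 3 counts, and intervals and such limits cover counting error only, since copies of a molecule are not told apart. Exact 95% intervals of count ratios are conditional binomial.

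Named genes are the 12 highest and 12 lowest called log2 differences in the matched stretches whose mean reached 5 CPM and whose sign agreed over the treatments, plus KMT2A and NFE2L2. Lists are given by counts with examples, mostly called members. The stretches, the comparison, the members and the lists were chosen with earlier results of these data known. Because treatment is the pairing factor, the block was part of the fit: same-treatment libraries share an exposure and not a stated culture. Alternatives were RLE and upper-quartile scaling, other filters, DESeq2 1.42.0, limma-voom (limma 3.58.1), all 12 libraries, no treatment block, the untreated counts of the CeO2 table, removal of a trend with exon length, and each library left out in turn. Added after seeing the data were counts without chromosome 5, scaling on matched entries outside it, and a length trend fitted outside it. The code was tested on simulated data. Promoters came from RefSeq (GRCh38.p14), which held one for 334 tested genes of the stretches.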

Additional observations from a re-analysis of the deposited data

Results flagged for a closer look

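SLC4A1APP1, a processed pseudogene on chromosome 9, was singled out because the difference between the derivatives changed with exposure by a test of that change. In shNRF2 it was counted 129 times without treatment, 9 times with H2O2 and 8 times with CeO2; in shMLL1 the counts were 70, 59 and 59, so that shNRF2 was higher without treatment and lower after either agent. The change of the log2 difference was -3.76 ± 0.43 (edgeR adjusted p = 0.00617). The libraries outside the comparison also varied, from 24 to 107 counts among the shControl libraries and from 28 to 122 among the shUTX libraries, and each value rests on 1 library.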

How the results depend on the processing

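No paired analysis by replicate number was possible because every combination of derivative and treatment had 1 library; pairing by treatment was part of the fit, and without that block 1612 entries were called (1609 of them shared) and 147 in the matched stretches. Against 1991 called entries, DESeq2 called 948 (946 shared), the fit to all 12 libraries 1219, and omission of 1 library between 1238 (without the CeO2 library of shNRF2) and 1811 (without the untreated library of shNRF2), with 1302 without the CeO2 library of shMLL1. In the matched stretches 122 to 170 entries were called under every setting but one; without the chromosome 5 entries 81 remained. Scaling on the entries outside chromosome 5 called 1612 entries, 1202 higher and 410 lower, and moved the median of all entries to 0.0832. The changed difference by exposure had 1 call with a filter at 5 CPM. Of 113 called genes examined singly, 70 kept their call under every alternative in which they could be fitted. Of 124 list members that were not called, 31 were called under at least 1 alternative, so a missing call also depends on the processing. With the length trend removed TRIO turned to -0.077 and KDM4B to -0.176, neither called (adjusted p = 0.522 and 0.182); the cause of these changes was not tested. The length trend was not run for all entries, since exon lengths belong to the reads only in the stretches. Distal chromosome 5 genes were higher in 52 to 62 of 67 to 93 tested, with medians of 0.404 to 0.603. At these depths the intervals of genes near 0 are wide, as for OTULINL.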

Other observations

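Ciliary genes were called in 5 of 8 tested members, 4 higher in shNRF2 and 1 lower, with a median of 0.71 over all 8. SPEF2, described above, is among the 4 higher. It passed the abundance filter only through shNRF2, so its part in this count and median is a description only. Of 4 tested members on chromosome 5, 3 were higher and 0 lower. Of the 4 elsewhere, 1 was higher and 1 lower, with a median of 0.586. Among all tested entries in the stretches, 34.5% were called. DNAH5, a heavy chain of the outer dynein arm, held 17.4, 16.6 and 16.0 CPM in shMLL1, 35.0, 24.4 and 35.6 CPM in shNRF2 and 35.5, 48.5 and 49.9 CPM in shControl (log2 0.91 ± 0.14, edgeR adjusted p = 2.35e-05), on the distal side of chromosome 5. FSD1, a centrosomal protein encoded on chromosome 19, held 8.85, 8.12 and 9.25 CPM in shMLL1, 17.1, 21.2 and 17.9 CPM in shNRF2 (log2 1.07 ± 0.17, edgeR adjusted p = 4.77e-05). RFX2, a transcription factor of ciliary genes, was the lower member (84.9, 75.7 and 83.4 CPM against 60.5, 58.3 and 65.6 CPM; log2 -0.42 ± 0.09), and shControl was above both at 113, 104 and 111 CPM. CPLANE1 was higher by 0.51 ± 0.11 and lost its call when the trend with exon length was removed.

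Developmental transcription factors were called in 4 of 10 tested members, 3 higher in shNRF2 and 1 lower, with a median of -0.04. Besides ONECUT3 these were IRX4 (85.3, 77.6 and 74.2 CPM in shMLL1 against 131, 141 and 136 CPM in shNRF2; log2 0.77 ± 0.09) and IRX2 (log2 0.47 ± 0.08), Iroquois homeobox genes that stand close together on chromosome 5 and whose shControl levels, at 130 to 176 CPM for IRX4, were also above shMLL1. NFIC, a nuclear factor I protein, was lower (log2 -0.29 ± 0.07) and lost its call under 3 of 18 settings. Of these, 2 were omissions of a CeO2 library and the other was the scaling outside chromosome 5. MATK, a kinase that restrains SRC, was singled out after its values were seen: it held 0.70, 0.88 and 0 CPM in shMLL1 and 3.02, 7.24 and 4.30 CPM in shNRF2 (log2 3.14 ± 0.47), at levels where a single count weighs much. It passed the abundance filter only through shNRF2, so its difference is a description only.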
